A study of Homo sapiens with 8 samples.

Results

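Gastrin, cholecystokinin, corticotropin-releasing hormone and 7 further peptide hormone genes were followed through stem cell-derived islets of 4 genotypes. The genes were GAST, CCK, CRH, VIP, TAC1, NTS, GIP, SCT, MLN and UCN3, a given list of peptide hormones matched by symbol. The list was chosen with earlier results of these data known. All 10 were found among the 38592 genes of the deposited gene table, and all 10 passed the filter on low counts. The cells were islet-like and came from H1 embryonic stem cells, a long-established human line. Cells were either wild type (WT) or knocked out (KO) for 1 gene: ISL1, PAX6 or PDX1, whose products are homeodomain factors that control islet gene expression. On day 11 they were transduced either with ISL1 followed by blue fluorescent protein (libraries labelled ISL1 OE) or with blue fluorescent protein alone (BFP), and all were harvested on day 18. The groups were WT BFP (n = 2), WT ISL1 OE (n = 2), ISL1 KO BFP (n = 3), ISL1 KO ISL1 OE (n = 3), PAX6 KO BFP (n = 3), PAX6 KO ISL1 OE (n = 3), PDX1 KO BFP (n = 3) and PDX1 KO ISL1 OE (n = 2), with 21 libraries in all. All 8 groups share the H1 parent and a transduction, and no untransduced cells were analysed here. The labels do not say how many clones stand for each knockout, so replicates may be cultures of 1 clone.

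Peptide hormones are made as larger precursors, cut by prohormone convertases inside secretory granules, often amidated at their ends, and released to act on receptors of the G protein-coupled class. In the adult, gastrin, cholecystokinin, GIP, secretin, motilin and neurotensin come mainly from enteroendocrine cells of the stomach and gut. VIP and substance P come mainly from neurons, CRH from the hypothalamus, and urocortin 3 from mature beta cells. Fetal islets can also express gastrin, and gut and pancreatic endocrine cells both pass through a NEUROG3-positive progenitor.

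In 2 groups 1 library was unlike its partners, and results that rest on those libraries are given with and without them. Replicate 4 of PDX1 KO labelled ISL1 OE correlated at 0.905 with its partner (log2 CPM over genes), and the lowest correlation within PAX6 KO ISL1 OE, which involved replicate 3, was 0.930. Within the other 6 groups it was 0.99 or higher. The set without these 2 libraries, chosen after the data were seen, is called the reduced set, and its common dispersion was 0.0344 against 0.114 with all libraries. Library totals ran from 40959445 to 66818593 counts, and 24721 to 27304 genes were detected. In 5 groups 1 library was read on lanes 5 to 8 and all other libraries on lanes 1 to 4. ISL1 RNA was 67.5 ± 3.88 CPM in ISL1 KO BFP (SD, n = 3) against 384 ± 141 in WT BFP (n = 2), and it was 72.9 ± 11.2 in ISL1 KO ISL1 OE (n = 3), so ISL1 RNA gave no check of the vector label. PAX6 and PDX1 RNA were still present in their own knockouts, at 132 ± 30.6 and 101 ± 6.44 CPM with BFP (n = 3 each), which does not check these labels. Every library held the endocrine markers fixed for this work (CHGA, CHGB, SYP, SCGN, INSM1, SCG2 and SCG3), with a summed level of 10745 to 47848 CPM. Marker lists of other cell types were detected too: liver markers summed to 3463 to 20812 CPM, neuronal markers to 226 to 954, mesenchymal markers to 74.5 to 1614, stomach markers to 26.1 to 409 and intestinal markers to 19.4 to 235. In bulk RNA, fewer cells of a type and less RNA per cell cannot be told apart.

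The sequence before the transcription start was read from RefSeq (GRCh38.p14), which held windows for 7 of the 10 genes. The windows of GAST and GIP are shown as examples of genes at their lowest in PAX6 KO or PDX1 KO. By group mean CCK, TAC1 and MLN were at their lowest in PAX6 KO too, and their windows are not shown. That of NTS is shown because NTS was the only gene of the 10 called between vectors in ISL1 KO with all libraries. Each line gives 250 bases up to the start, 5′ to 3′ on the strand of the gene. Capitals mark TAAT on either strand (TAAT or ATTA), the core that many homeodomain proteins bind.
GAST: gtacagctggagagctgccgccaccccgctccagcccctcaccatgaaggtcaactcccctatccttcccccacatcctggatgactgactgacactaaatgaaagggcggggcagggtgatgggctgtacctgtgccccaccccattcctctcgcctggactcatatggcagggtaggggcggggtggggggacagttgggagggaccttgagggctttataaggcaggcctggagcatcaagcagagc
GIP: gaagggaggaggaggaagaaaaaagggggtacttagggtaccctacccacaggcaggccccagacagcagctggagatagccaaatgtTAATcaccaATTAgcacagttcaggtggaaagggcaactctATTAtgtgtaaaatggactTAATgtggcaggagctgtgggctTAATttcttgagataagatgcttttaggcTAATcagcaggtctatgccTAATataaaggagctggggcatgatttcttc
NTS: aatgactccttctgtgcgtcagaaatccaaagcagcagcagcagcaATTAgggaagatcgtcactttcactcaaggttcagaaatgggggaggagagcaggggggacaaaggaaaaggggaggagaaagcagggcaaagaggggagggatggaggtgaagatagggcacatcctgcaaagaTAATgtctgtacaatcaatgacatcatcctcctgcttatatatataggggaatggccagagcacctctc
The GAST window lies at chr17:41712081-41712330 (plus strand), the GIP window at chr17:48968597-48968846 (minus strand) and the NTS window at chr12:85874045-85874294 (plus strand). GIP held 7 matches, the farthest beginning 162 and the nearest 31 bases before the start. NTS held 2, beginning 204 and 69 bases before it, and GAST held none. Among the other windows, VIP held 4 matches, TAC1 held 2, MLN held 1, and the 2 alternative starts of CCK held 2 and 1. TAAT was present in 47.4% of all 35116 windows of the same length, so its presence in 6 of 7 genes is a description and not evidence of binding. The E-box pattern CANNTG, present in 61.8% of windows, was matched 3 times each in GAST, GIP and TAC1 and not in NTS or VIP. The cyclic AMP response element TGACGTCA, present in 1.65% of windows, was in none of the windows of these 7 genes. CRH, SCT and UCN3 were not searched for it.

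Levels of different genes are compared per transcript length, as TPM. In WT BFP (n = 2) GAST was the highest of the 10, at 1235 ± 502 TPM, followed by CCK at 456 ± 232 TPM. GIP had 95.2 ± 32.6 TPM, SCT 71.6 ± 4.80, CRH 27.8 ± 1.26, NTS 14.7 ± 6.16 and MLN 14 ± 10.2. UCN3 had 2.31 ± 1.09 TPM, TAC1 1.54 ± 0.720, and VIP was at 0 counts in both libraries. For scale, INS, the insulin gene, had 53865 ± 10415 TPM and GCG, the glucagon gene, 57883 ± 12553 TPM in the same libraries. In PAX6 KO BFP the order changed: CRH led with 435 ± 81.7 TPM, GAST had 133 ± 31.7, and CCK had 8.50 ± 1.37 (n = 3). In PDX1 KO BFP the highest was SCT at 59.2 ± 12.8 TPM, with CCK at 54.7 ± 11.5 and GAST at 34.6 ± 5.06, ranges that overlap for SCT and CCK. Within a gene, levels are given below as read counts scaled to library size and by TMM factors (CPM), and log2 fold changes from the edgeR quasi-likelihood fit are given ± SE.

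**Figure D1:**
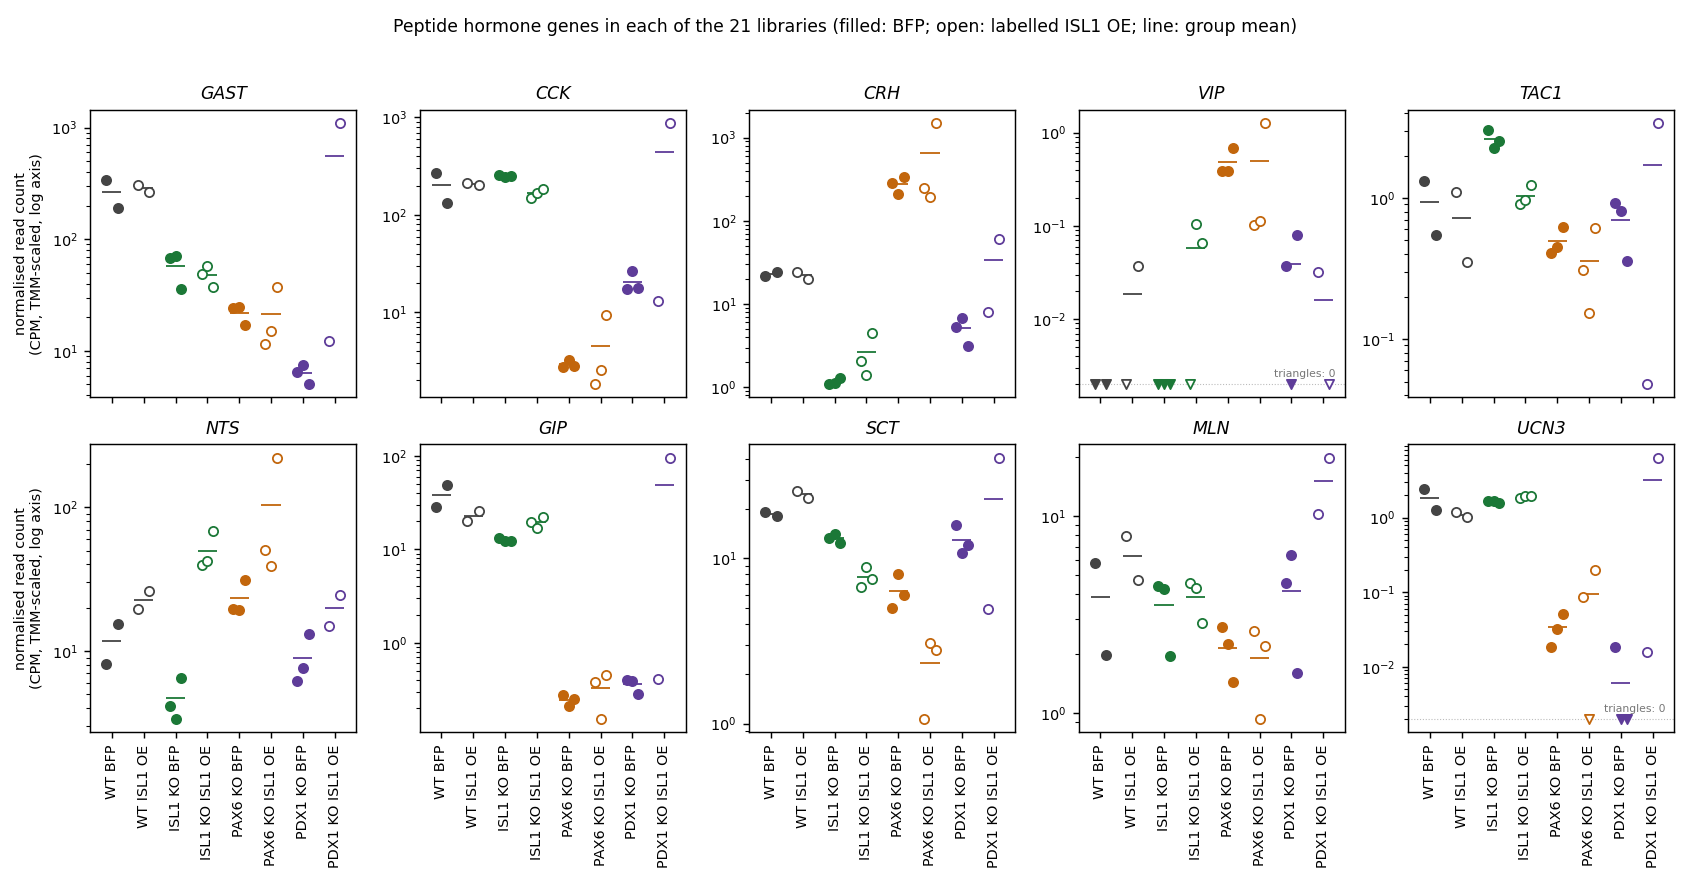
Normalised read count of each of the 10 genes (CPM, log axis) in each of the 21 libraries, by group; filled points are BFP, open points labelled ISL1 OE, lines are group means, and triangles mark 0. GAST is lowest in PDX1 KO BFP (5.02 to 7.41 CPM), CCK in PAX6 KO BFP (2.76 to 3.28 CPM), and CRH highest in PAX6 KO (196 CPM or more in all 6 libraries).

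Gastrin and cholecystokinin share their amidated carboxyl end and act on the receptors CCKBR and CCKAR. GAST (ENSG00000184502, GRCh38 chromosome 17, 41712326 to 41715969, plus strand), the acid secretion hormone of the stomach, had 336 and 191 CPM in the 2 WT BFP libraries. It had 67.6, 71.3 and 35.6 CPM in ISL1 KO BFP, 24, 24.6 and 16.9 in PAX6 KO BFP, and 6.42, 7.41 and 5.02 in PDX1 KO BFP. No knockout library reached the lower WT library, and the 3 knockouts did not overlap with each other. GAST fell by 3.59 ± 0.90 on the log2 scale in PAX6 KO (adjusted p = 0.0284) and by 5.39 ± 0.91 in PDX1 KO (adjusted p = 0.00256). In ISL1 KO the log2 fold change was −2.18 ± 0.90 and did not pass with all libraries (adjusted p = 0.168), whereas in the reduced set it was −2.19 ± 0.28 with adjusted p = 3.38e-05. The PAX6 KO call was lost without any 1 of the 5 libraries compared (adjusted p up to 0.187), while the PDX1 KO call was kept in all 5.

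CCK (ENSG00000187094, chromosome 3, 42257825 to 42266207, minus strand), which drives gallbladder and pancreatic secretion, had 272 and 134 CPM in WT BFP and 255, 243 and 252 in ISL1 KO BFP. Its levels in ISL1 KO lay within the WT range. It had 2.76, 3.28 and 2.80 CPM in PAX6 KO BFP and 17.4, 26.3 and 17.9 in PDX1 KO BFP, with no overlap between these groups or with WT. CCK fell by 6.10 ± 0.90 in PAX6 KO (adjusted p = 0.00224) and by 3.30 ± 0.89 in PDX1 KO (adjusted p = 0.0267). Between these knockouts the order was the reverse of that of GAST: CCK was higher in PDX1 KO by 2.80 ± 0.81 on the log2 scale, which did not pass with all libraries (adjusted p = 0.0904) and passed in the reduced set (2.77 ± 0.23, adjusted p = 9.15e-07). GAST was lower there by −1.80 ± 0.81 (adjusted p = 0.30), and in the reduced set by −1.83 ± 0.27 (adjusted p = 2.06e-04). The CCK call of PDX1 KO against WT was lost without any 1 of its 5 libraries (adjusted p up to 0.216), and that of PAX6 KO was kept in all 5.

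GIP, secretin and VIP belong to the secretin family of peptides, as glucagon does. GIP (ENSG00000159224, chromosome 17, 48958554 to 48968596, minus strand), the incretin of duodenal K cells, had 28.5 and 48.5 CPM in WT BFP. It had 13.3, 12.3 and 12.2 CPM in ISL1 KO BFP, but 0.278, 0.210 and 0.251 in PAX6 KO BFP and 0.404, 0.393 and 0.280 in PDX1 KO BFP. All 6 PAX6 KO and PDX1 KO libraries were under 1 CPM. GIP fell by 7.28 ± 1.08 in PAX6 KO (adjusted p = 0.00182) and by 6.73 ± 1.04 in PDX1 KO (adjusted p = 0.00150), and both calls were kept without any 1 library. The ISL1 KO value, −1.61 ± 0.94, did not pass with all libraries (adjusted p = 0.357) and passed in the reduced set (−1.62 ± 0.23, adjusted p = 6.85e-05).

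SCT (ENSG00000070031, chromosome 11, 626431 to 627143, minus strand), the gene of secretin, which stimulates bicarbonate secretion, was detected in every library. It had 19.2 and 18.0 CPM in WT BFP, 13.3, 14.1 and 12.4 in ISL1 KO BFP, 15.8, 10.7 and 12.1 in PDX1 KO BFP, and 5.01, 8.08 and 5.99 in PAX6 KO BFP. PAX6 KO was below all other BFP libraries, but its log2 fold change against WT, −1.55 ± 0.55, did not pass with all libraries (adjusted p = 0.100). In the reduced set it was −1.54 ± 0.29 with adjusted p = 7.48e-04. VIP (ENSG00000146469, chromosome 6, 152750798 to 152759765, plus strand), a vasodilator peptide of neurons, was at 0 counts in 9 of 21 libraries. It had 21, 24 and 41 counts in PAX6 KO BFP and 0 in all WT BFP and ISL1 KO BFP libraries. Against a floor of 3 counts over the group, VIP was at least 14.2-fold higher in PAX6 KO BFP than in WT BFP and at least 31.7-fold higher than in ISL1 KO BFP. The second difference passed the test (edgeR adjusted p = 0.0345) and the first did not (adjusted p = 0.0672). Outside PAX6 KO no library was above 0.106 CPM, so VIP passed the filter only through PAX6 KO, where it was high. Its test is thus no independent support for the difference. The highest VIP level in any library was 1.27 CPM, in the library PAX6 KO ISL1 OE replicate 3. Neuronal markers summed to 350.0 to 535 CPM in PAX6 KO BFP, 507 to 522 in WT BFP and 285 to 384 in ISL1 KO BFP, and their part in the VIP counts was not tested.

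CRH and urocortin 3 belong to one peptide family, whose receptors are CRHR1 and CRHR2. CRH (ENSG00000147571, chromosome 8, 66176382 to 66178725, minus strand), the hypothalamic activator of the stress axis, moved in opposite directions in 2 of the knockouts. It had 22 and 24.4 CPM in WT BFP, 1.08, 1.12 and 1.31 in ISL1 KO BFP, 287, 210.5 and 339 in PAX6 KO BFP, and 5.26, 6.88 and 3.10 in PDX1 KO BFP. None of these 4 groups overlapped. CRH fell by 4.31 ± 0.79 in ISL1 KO (adjusted p = 0.00470), and this call was kept without any 1 library. It rose by 3.59 ± 0.77 in PAX6 KO (adjusted p = 0.0242), a call that was kept only when PAX6 KO BFP replicate 2 was left out and reached adjusted p = 0.208 otherwise. The PDX1 KO value, −2.19 ± 0.77, did not pass with all libraries (adjusted p = 0.0763) and passed in the reduced set (−2.20 ± 0.35, adjusted p = 1.29e-04). CRHBP, which encodes the binding protein that holds CRH inactive, fell in both ISL1 KO (−1.86 ± 0.53, adjusted p = 0.0433) and PAX6 KO (−2.92 ± 0.54, adjusted p = 0.00460). UCN, the gene of the related peptide urocortin, fell in PAX6 KO by 2.74 ± 0.80 (adjusted p = 0.0463).

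UCN3 (ENSG00000178473, chromosome 10, 5365009 to 5374692, plus strand) was low throughout. It had 2.42 and 1.26 CPM in WT BFP and 1.68, 1.65 and 1.59 CPM in ISL1 KO BFP. Its counts were 168 over the WT BFP libraries, 318 over those of ISL1 KO BFP, 1, 2 and 3 in PAX6 KO BFP, and 1, 0 and 0 in PDX1 KO BFP. ISL1 KO lay within the WT range, and the other 2 knockouts held at most 3 counts a library. Per normalised count, WT BFP was 56.6-fold above PAX6 KO BFP (exact 95% interval 25.5 to 156) and 325-fold above PDX1 KO BFP (57.6 to 12928), intervals that cover counting error only. Both falls passed the edgeR test (adjusted p = 0.0172 and 0.00516). The PAX6 KO call was lost without any 1 of its 5 libraries (adjusted p up to 0.126), and the PDX1 KO call was kept in all 5.

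NTS (ENSG00000133636, chromosome 12, 85874295 to 85882992, plus strand), the neurotensin gene, had 8.10 and 15.5 CPM in WT BFP and 4.16, 3.39 and 6.54 in ISL1 KO BFP. It had 19.5, 19.2 and 31.2 CPM in PAX6 KO BFP and 6.16, 7.70 and 13.1 in PDX1 KO BFP. Against WT none of the knockouts passed with all libraries, although ISL1 KO lay below and PAX6 KO above both WT libraries. In the reduced set NTS was called lower in ISL1 KO (−1.33 ± 0.37, adjusted p = 0.0124). TAC1 (ENSG00000006128, chromosome 7, 97731908 to 97740472, plus strand), the gene of substance P and neurokinin A, had 1.33 and 0.549 CPM in WT BFP and 3.02, 2.25 and 2.52 in ISL1 KO BFP. It had 0.408 to 0.620 CPM in PAX6 KO BFP and 0.360 to 0.917 in PDX1 KO BFP. ISL1 KO was above both WT libraries, but the log2 fold change of 1.45 ± 0.90 did not pass (adjusted p = 0.415), and it passed in the reduced set (1.44 ± 0.47, adjusted p = 0.0353). MLN (ENSG00000096395, chromosome 6, 33794673 to 33804011, minus strand), the gene of motilin, a driver of gut motility between meals, had 1.98 and 5.78 CPM in WT BFP. Its levels in ISL1 KO BFP (1.94 to 4.41), PAX6 KO BFP (1.44 to 2.75) and PDX1 KO BFP (1.60 to 6.37) overlapped with WT, and it passed in no comparison of BFP groups.

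Counted over the 10 genes, 1 was called in ISL1 KO against WT with BFP (CRH, lower), where 6.53% of the 22184 genes tested were called and 4.48% were called lower. In PAX6 KO 5 were called, 4 lower (GAST, CCK, GIP and UCN3) and 1 higher (CRH), beside 6.65% of all genes, 4.25% lower and 2.41% higher. In PDX1 KO 4 were called, all lower (GAST, CCK, GIP and UCN3), beside 11.4% of all genes and 6.84% lower. The groups did not overlap for 6, 8 and 6 of the 10 genes, beside 54.3%, 51.4% and 56.2% of all genes, so these shares are read only gene by gene. The median log2 fold change of the 10 genes was −0.33, −1.24 and −1.36 in ISL1 KO, PAX6 KO and PDX1 KO, and that of all genes tested 0.03, 0.00 and 0.02. The 3 comparisons share the WT BFP libraries. In the reduced set 5, 7 and 5 of the 10 were called, beside 28.5%, 28.8% and 33.3% of the genes tested. At an unadjusted p under 0.05 the counts were 3, 7 and 5. In PAX6 KO the 8 genes without overlap and both counts of 7 include VIP. It passed the filter only through PAX6 KO, where it was high, so it adds no independent support to these counts. Intestinal markers, like GIP and GAST, lay below WT in all 3 knockouts, which CCK did not in ISL1 KO. They summed to 197 to 235 CPM in WT BFP, 123 to 163 in ISL1 KO BFP, 76.8 to 130.3 in PAX6 KO BFP and 64.7 to 90.3 in PDX1 KO BFP. Of the 6 tested, 2, 2 and 3 were called lower in the 3 knockouts. Of the 6 liver markers 3, 5 and 5 were called lower. Stomach markers summed to 26.2 to 26.5 CPM in WT BFP and 26.1 to 26.3 in ISL1 KO BFP. Their sums were higher in PAX6 KO BFP (44.0 to 59.2) and PDX1 KO BFP (62.9 to 96.4). Of the 6 tested, 1, 1 and 3 were called higher in ISL1 KO, PAX6 KO and PDX1 KO. The median log2 fold change of these markers was −0.13 in ISL1 KO and −0.02 in PAX6 KO. The part of these lists in the results was not tested. Endocrine markers summed to 20067 to 24609 CPM in WT BFP, 15729 to 26103 in PAX6 KO BFP and 44579 to 47848 in PDX1 KO BFP, and none of the 7 was called lower in the 3 knockouts.

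Between knockouts, with BFP, 6 of the 10 genes were called in PAX6 KO against ISL1 KO, where 2.78% of all genes were called, 1.79% higher and 0.987% lower. For 9 of the 10 these knockouts did not overlap, beside 24.7% of all genes. CRH was higher in PAX6 KO by 7.89 ± 0.71 (adjusted p = 1.11e-04), and NTS by 2.31 ± 0.52 (adjusted p = 0.0286). CCK was lower by −6.41 ± 0.81 (adjusted p = 0.00153), GIP by −5.67 ± 0.99 (adjusted p = 0.00686) and UCN3 by −5.50 ± 1.42 (adjusted p = 0.0243). VIP, which passed the filter only through PAX6 KO as described above, was the sixth, and it is also among the 9 without overlap. The NTS call was kept only when PAX6 KO BFP replicate 2 was left out (adjusted p up to 0.151 otherwise), and the UCN3 call was lost without any 1 library (up to 0.123). PDX1 KO was below ISL1 KO in 4 genes, beside 5.71% of all genes called and 3.32% called lower. The groups did not overlap for 6 of the 10, beside 41.7%. These were GAST (−3.21 ± 0.81, adjusted p = 0.0401), CCK (−3.61 ± 0.80, adjusted p = 0.0223), GIP (−5.12 ± 0.95, adjusted p = 0.00757) and UCN3 (318 counts against 1, adjusted p = 0.00814). The GAST call was lost with the lane set as a term (adjusted p = 0.0529) and without any of 5 of the 6 libraries (up to 0.157), and CCK without the same number (up to 0.104). GIP was lost without PDX1 KO BFP replicate 3 (adjusted p = 0.0501) and UCN3 without PDX1 KO BFP replicate 2 or 3 (up to 0.0597). Between PDX1 KO and PAX6 KO, CRH alone was called, lower in PDX1 KO by −5.78 ± 0.69 (adjusted p = 7.08e-04), beside 3.62% of all genes called and 1.70% called lower. The groups did not overlap for 8 of the 10, beside 35.0%, and 6 of the 10 were called in the reduced set, beside 20.1%. Both counts include VIP, which passed the filter only through PAX6 KO. The 8 also include 2 genes at low levels that barely separated. GIP had 0.210 to 0.278 CPM in PAX6 KO BFP and 0.280 to 0.404 in PDX1 KO BFP, and UCN3 had 6 counts against 1.

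**Figure D2:**
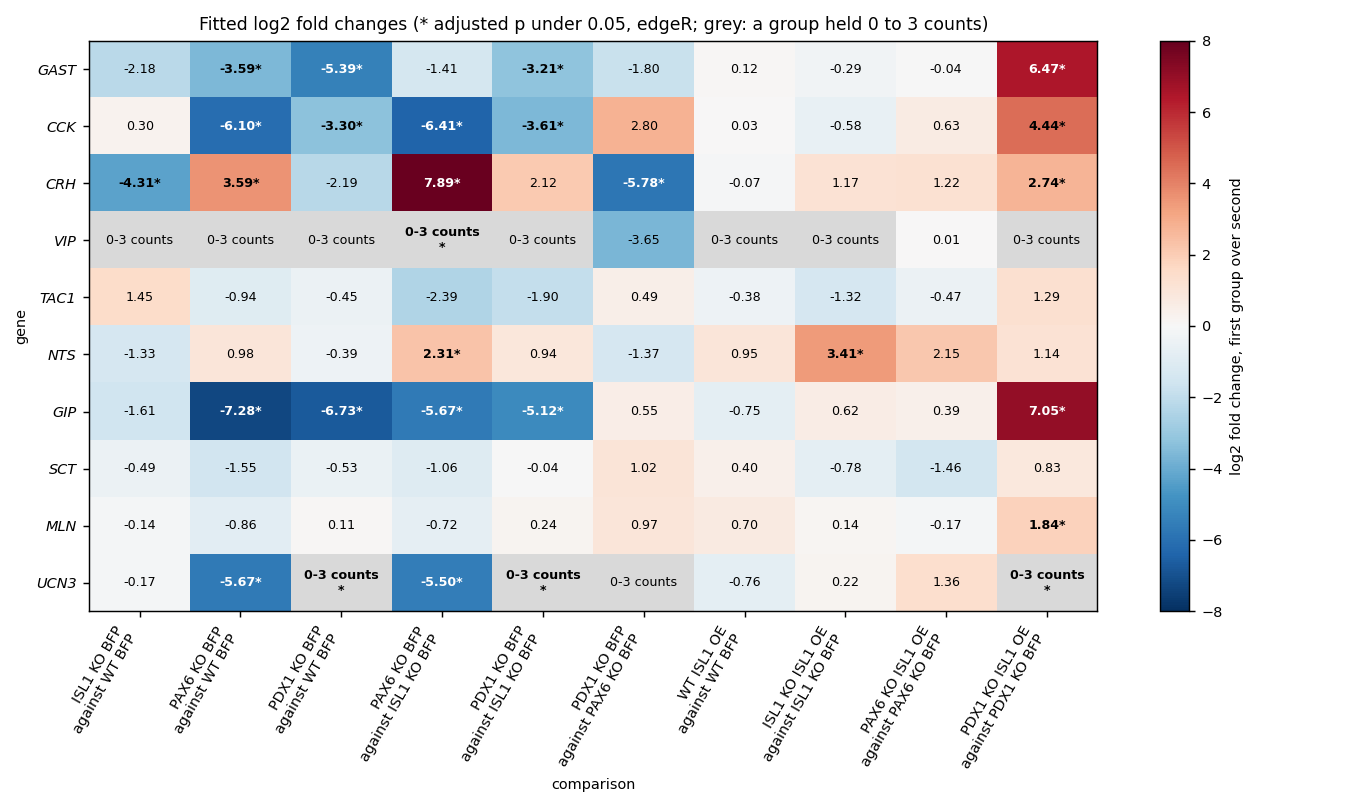
Fitted log2 fold change of each of the 10 genes (rows) in each comparison (columns), first group over second; asterisks mark adjusted p under 0.05, and grey cells have a group with 0 to 3 counts. GIP is at −7.28 in PAX6 KO and −6.73 in PDX1 KO against WT, and CRH changes sign between ISL1 KO (−4.31) and PAX6 KO (3.59).

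The ISL1 vector was compared with BFP within each genotype. In WT none of the 10 genes was called by edgeR, at an unadjusted p under 0.05 or by DESeq2, where 0.0361% of all genes were called. For 4 of the 10 the vectors did not overlap, beside 43.7% of all genes, and the reduced set also called 0, beside 1.69%. NTS had 19.5 and 26.2 CPM in WT ISL1 OE, above both BFP libraries, with a log2 fold change of 0.95 ± 0.64 (adjusted p = 1.0). In ISL1 KO the vector went with a higher NTS level. NTS had 39.9, 42.3 and 67.8 CPM in ISL1 KO ISL1 OE, above all 3 BFP libraries and above both libraries of WT BFP. It rose by 3.41 ± 0.52 (adjusted p = 0.0102), as 1 of 10 genes called beside 0.424% of all genes and 0.243% called higher. For 7 of the 10 the vectors did not overlap, beside 26.9% of all genes, and the reduced set called 1 as well, beside 5.92%. The call was kept without any 1 labelled ISL1 OE library and lost without any 1 BFP library (adjusted p up to 0.0896). The difference of this effect from that in WT, 2.46 on the log2 scale, did not pass (adjusted p = 1.0, where 0.00451% of all genes passed), nor in the reduced set (adjusted p = 0.0603, beside 0.313%), so NTS is not shown to respond differently in ISL1 KO. CRH had 2.07, 1.39 and 4.47 CPM in ISL1 KO ISL1 OE, above the BFP libraries but below WT, and did not pass. GAST in the same libraries had 48.7, 57.1 and 37.2 CPM, within the range of ISL1 KO BFP.

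In PAX6 KO none of the 10 was called by edgeR, beside 0.415% of all genes, and the groups did not overlap for 2 of the 10, beside 17.1%, while 2 had an unadjusted p under 0.05 and DESeq2 called 1 (NTS). NTS had 50.3, 39.0 and 221 CPM with the ISL1 vector, above all 3 BFP libraries. Its log2 fold change was 2.15 ± 0.52 (adjusted p = 0.114). Replicate 3, the highest, stands apart, and without it the value was 0.94 (adjusted p = 0.367). SCT had 1.07, 3.08 and 2.79 CPM, below all 3 BFP libraries, with a log2 fold change of −1.46 ± 0.50 (adjusted p = 0.279), and it was called lower in the reduced set (−1.60 ± 0.30, adjusted p = 0.00948), as the 1 gene of the 10 called there beside 6.02% of the genes tested. The difference of the vector effect from that in WT passed for 0 of the 10 with all libraries (1 at an unadjusted p under 0.05, 0 by DESeq2) and in the reduced set, where 0.0565% of all genes passed. CRH had 247 and 196 CPM in replicates 1 and 2 and 1500.4 in replicate 3. GIP stayed under 0.5 CPM and CCK under 10 CPM in all 3 libraries with the vector, so the low levels of PAX6 KO were seen with both vectors. Same-numbered libraries of this genotype deviated together, and with replicate terms for the PAX6 KO libraries alone 0 of the 10 were called (0.482% of all genes). With 1 set of replicate terms shared by all genotypes 2 were called, beside 2.98% of all genes.

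**Figure D3:**
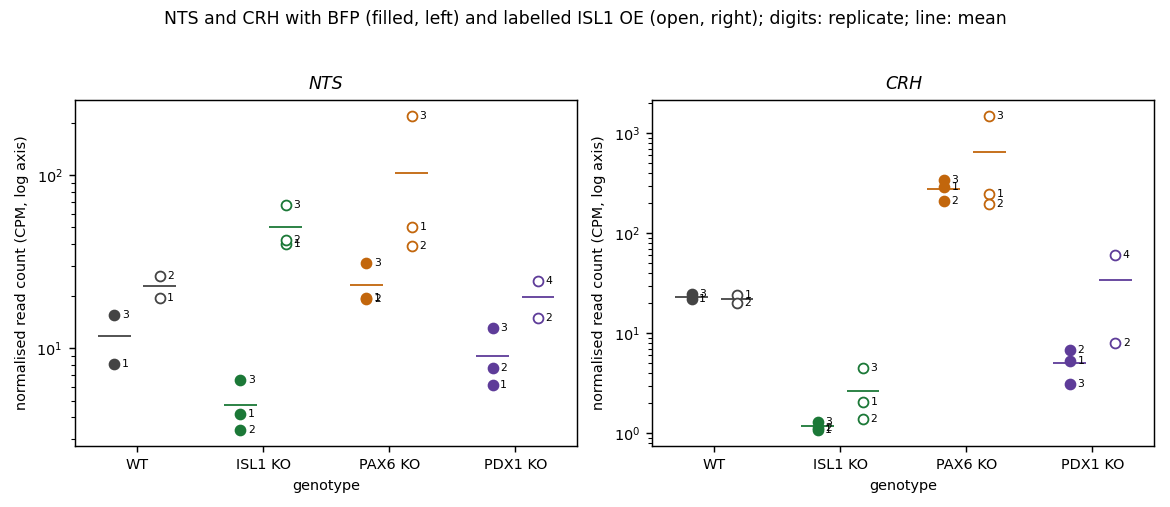
Normalised read count (CPM, log axis) of NTS and CRH by genotype, with BFP (filled) and labelled ISL1 OE (open); digits are replicate numbers and lines means. NTS is above every BFP library of the same genotype in all 10 labelled ISL1 OE libraries, and PAX6 KO ISL1 OE replicate 3 is the highest for both genes (221 and 1500.4 CPM).

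In PDX1 KO the 2 libraries labelled ISL1 OE did not resemble each other. GAST had 12.3 CPM in replicate 2 and 1099 in replicate 4, beside 5.02 to 7.41 in PDX1 KO BFP and 191 to 336 in WT BFP. CCK had 13.1 and 879 CPM, GIP 0.414 and 96.0, UCN3 0.0159 and 6.40, and CRH 7.99 and 60.1. Replicate 4 was above all 4 WT libraries for 8 of the 10 genes, the exceptions being NTS and VIP, and also for INS (44875 CPM) and GCG (94730.3 CPM). Its TMM factor, 0.707, was the lowest of all libraries and raises its CPM. In TPM it held 2424 of GAST (WT BFP 880 to 1590), 945 of CCK (292 to 620) and 114.8 of GIP (72.2 to 118.2). On that scale GIP, SCT (74.9 TPM) and GCG (65132 TPM) lay within the range of the 4 WT libraries, which reached 109.03 TPM for SCT and 66759 for GCG. PDX1 RNA in replicate 4 was 19.2 TPM, against 62.3 to 88.1 in the other 4 PDX1 KO libraries and 41.4 to 55.4 in the WT libraries, whereas in CPM it was 71.6, against 93.1 to 126.1 and 74 to 95.04. Whether this library carries the genotype and vector of its label was not tested.

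With both libraries 6 of the 10 genes were called higher in PDX1 KO ISL1 OE than in PDX1 KO BFP, beside 14.4% of all genes called and 9.09% called higher. These were GAST (6.47 ± 0.91, adjusted p = 0.00128), CCK (4.44 ± 0.89, adjusted p = 0.00700), CRH (2.74 ± 0.77, adjusted p = 0.0277), GIP (7.05 ± 1.04, adjusted p = 0.00133), MLN (1.84 ± 0.57, adjusted p = 0.0396) and UCN3 (251 counts against 1, adjusted p = 0.00332). The groups did not overlap for 5 of the 10, beside 35.4% of all genes. Markers of other cell types differed in the same comparison: 5 of 6 liver, 4 of 6 stomach and 3 of 6 intestinal markers tested were called higher, and 2 of 7 endocrine and 2 of 11 neuronal markers lower. Liver markers summed to 6428 to 20812 CPM with the ISL1 vector against 3463 to 4015 with BFP, stomach markers to 87.5 to 409 against 62.9 to 96.4, intestinal markers to 179.6 to 197 against 64.7 to 90.3, and endocrine markers to 21577 to 24272 against 44579 to 47848. Their part in the result was not tested. Without replicate 4, 0 of the 10 were called, and in the fit of these groups alone 0 were called as well, as was no gene of the whole table. In replicate 2 GAST (12.3 against 5.02 to 7.41 CPM) and CRH (7.99 against 3.10 to 6.88) lay above the BFP range, and GIP just above it (0.414 against 0.280 to 0.404). CCK (13.1 against 17.4 to 26.3), SCT (4.95 against 10.7 to 15.8) and TAC1 (0.0478 against 0.360 to 0.917) lay below it. In the reduced set, where replicate 2 stands alone and is assumed to vary like the other groups, the log2 fold changes were −1.35 for SCT and −3.78 for TAC1. The TAC1 value rests on 3 counts in replicate 2. MLN had 10.2 and 19.8 CPM, and the level of each was above all 3 BFP libraries. NTS had 15 and 24.6 CPM, above the BFP libraries in CPM, but 23.9 and 15.1 TPM against 9.39 to 20.4 TPM, where the groups overlap.

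**Figure D4:**
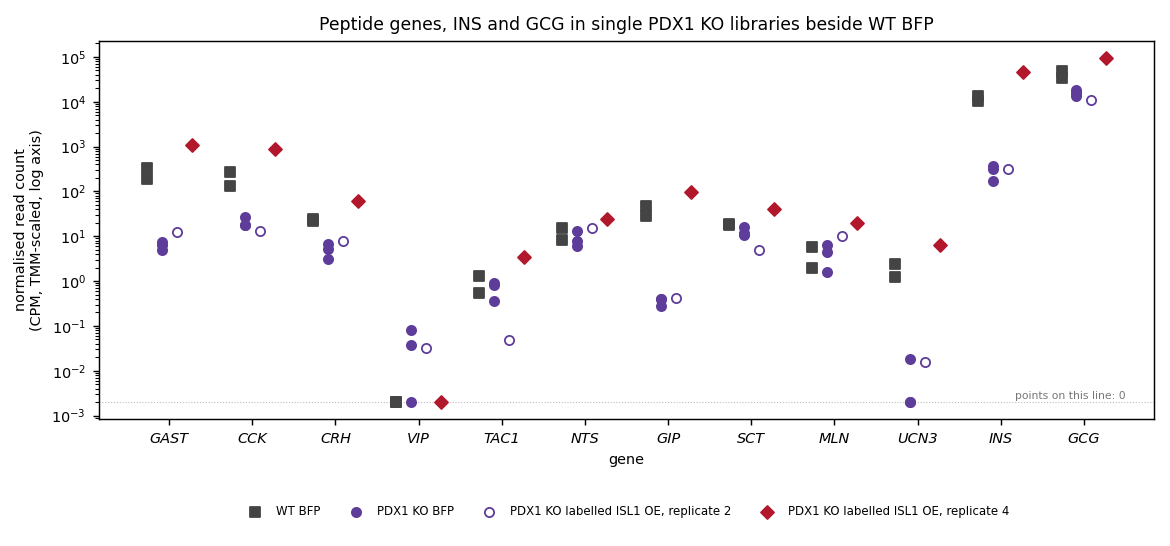
Normalised read count (CPM, log axis) of the 10 genes, INS and GCG in single PDX1 KO libraries beside the WT BFP libraries; points on the dotted line are 0. Replicate 4 of PDX1 KO labelled ISL1 OE (diamonds) sits above WT BFP for every gene shown except VIP. Replicate 2 (open circles) sits nearer PDX1 KO BFP than WT BFP for GAST (12.3 CPM), GIP (0.414 CPM) and UCN3 (0.0159 CPM). For GAST and GIP replicate 2 lies above the PDX1 KO BFP range.

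The lists that follow are read beside the shares of all genes called in the same comparisons with WT, which were 11.4% for PDX1 KO, 6.65% for PAX6 KO and 6.53% for ISL1 KO. Receptors of the 10 peptides were read from a list of 15 genes, 12 of which passed the filter. Per length, SORT1, a sorting receptor that also binds neurotensin, was the highest in WT BFP (22.6 TPM), followed by GIPR (7.46 TPM), the GIP receptor, and CCKBR (5.18 TPM), which binds gastrin and cholecystokinin. The G protein-coupled neurotensin receptors NTSR1 and NTSR2 were at 0.0364 TPM and 0, and CCKAR was at 0 in WT BFP. In ISL1 KO against WT 1 of the 12 rose and 1 fell: VIPR2, a receptor of VIP, rose by 2.73 ± 0.50 (adjusted p = 0.00531), and TACR3, a tachykinin receptor, fell by 3.45 ± 0.43 (adjusted p = 1.60e-04). In PAX6 KO 0 of 12 were called. In PDX1 KO CCKBR alone rose, by 1.66 ± 0.25 (adjusted p = 8.92e-04), from 7.10 ± 1.46 CPM in WT BFP (n = 2) to 22.5 ± 0.352 (n = 3). TACR1, the substance P receptor, was higher in PAX6 KO than in ISL1 KO by 2.19 ± 0.44 (adjusted p = 0.0125). The median log2 fold change of the receptors was 0.19, 0.28 and −0.08 in ISL1 KO, PAX6 KO and PDX1 KO against WT, beside 0.03, 0.00 and 0.02 over all genes tested.

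The 10 genes of precursor processing were all tested, and their counts stand beside the same shares of all genes (6.53%, 6.65% and 11.4%). In ISL1 KO 2 fell and 0 rose: CPE, the carboxypeptidase that trims cleaved precursors, by 1.78 ± 0.28 (adjusted p = 0.00105), and QPCT, which forms the pyroglutamate end of neurotensin and gastrin, by 2.09 ± 0.50 (adjusted p = 0.0188). QPCT had 68.6 ± 11.3 CPM in ISL1 KO BFP (n = 3) against 291 ± 51.2 in WT BFP (n = 2). In PAX6 KO 1 fell, SCG5, the chaperone of the convertase PCSK2, by 2.52 ± 0.67 (adjusted p = 0.0325). In PDX1 KO PCSK1, a prohormone convertase, rose by 1.95 ± 0.52 (adjusted p = 0.0321) and PCSK2 fell by 0.78 ± 0.22 (adjusted p = 0.0287). Their medians were −0.32, −0.13 and −0.06 in the 3 knockouts.

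**Figure D5:**
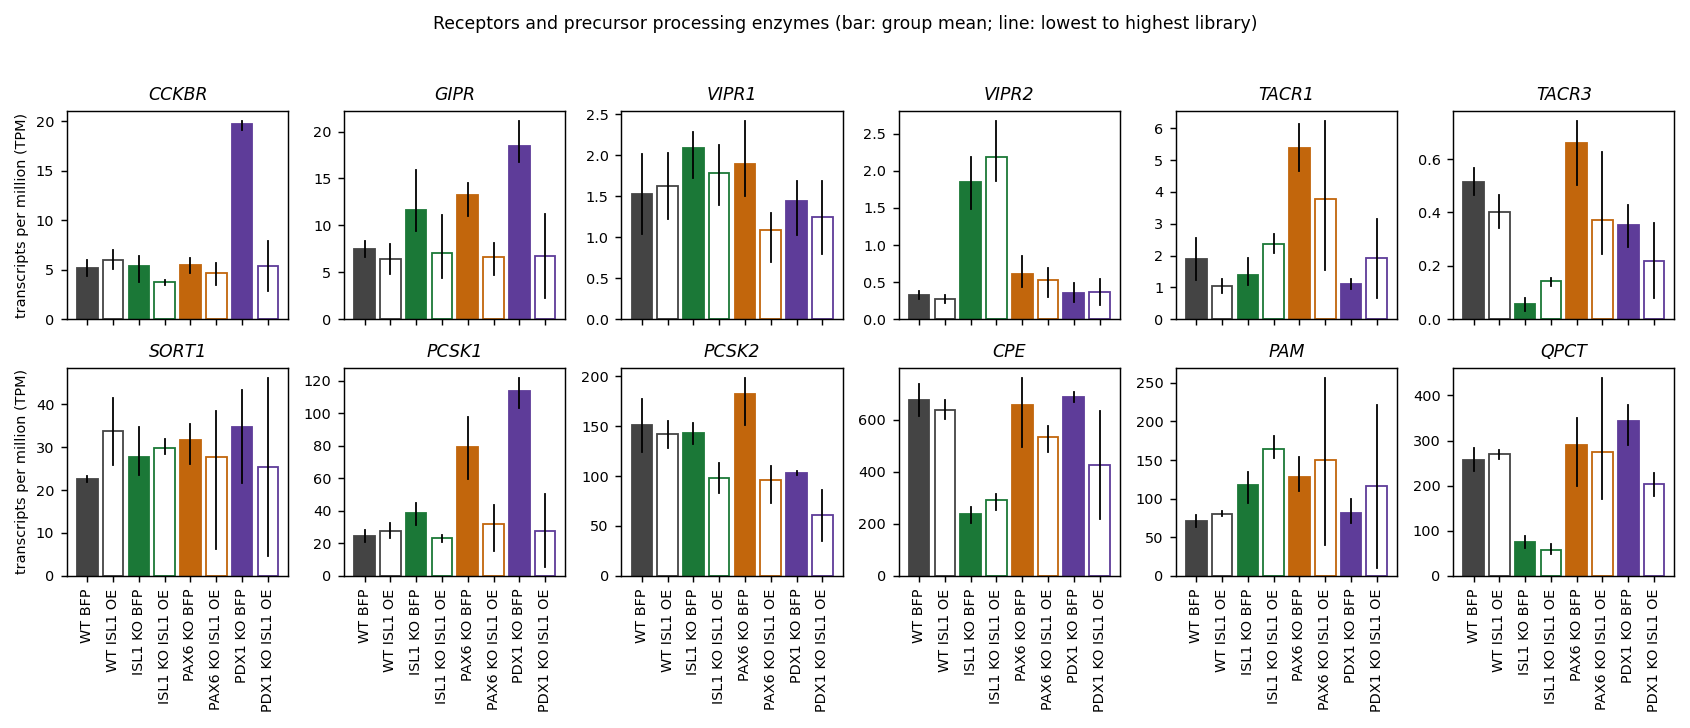
Level per length (TPM) of 7 receptors and 5 processing enzymes by group; bars are group means (filled BFP, open labelled ISL1 OE) and lines run from the lowest to the highest library. CCKBR is highest in PDX1 KO BFP (19.7 TPM against 5.18 in WT BFP), and QPCT (74.4 against 257) and CPE (237 against 675) are low in ISL1 KO BFP.

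Of 12 relatives of the peptides 10 passed the filter, and the counts of this and the next lists stand beside 6.53%, 6.65% and 11.4% of all genes. In PAX6 KO against WT 1 rose and 3 fell. GHRL, the ghrelin gene, a relative of motilin, rose by 5.27 ± 0.58 (adjusted p = 6.15e-04), and GCG fell by 10.07 ± 0.90 (adjusted p = 1.53e-04), with CRHBP and UCN as above. In ISL1 KO 2 fell, GCG (−9.00 ± 0.90, adjusted p = 2.03e-04) and CRHBP, and in PDX1 KO 0 were called. The median log2 fold change of the relatives was −1.54, −1.04 and −1.36 in ISL1 KO, PAX6 KO and PDX1 KO. With the ISL1 vector in ISL1 KO, GCG alone was called, higher by 5.32 ± 0.81 (adjusted p = 0.0180), beside 0.424% of all genes. Among 13 other neuropeptides, all tested, PTHLH, the gene of parathyroid hormone-related protein, rose in each knockout: by 1.86 ± 0.42 in ISL1 KO (adjusted p = 0.0217), 1.94 ± 0.42 in PAX6 KO (adjusted p = 0.0176) and 3.08 ± 0.42 in PDX1 KO (adjusted p = 8.98e-04). PENK, the proenkephalin gene, fell in PAX6 KO by 2.18 ± 0.41 (adjusted p = 0.00442). The medians of this list were −0.66, −0.15 and −0.41. Of 14 transcription factors of enteroendocrine development, all tested, 4 rose and 2 fell in ISL1 KO, 4 rose in PAX6 KO, and 5 rose and 2 fell in PDX1 KO, with medians of 0.34, 0.83 and 0.12. The list holds the 3 edited genes, and ISL1 was among those that fell in ISL1 KO and in PDX1 KO. NEUROG3, the factor of endocrine progenitors, rose by 2.78 ± 0.33 in PAX6 KO (adjusted p = 3.84e-04). LMX1A and MNX1 rose in PDX1 KO by 2.57 ± 0.44 and 2.22 ± 0.34 (adjusted p = 0.00295 and 0.00126).

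The pattern of each gene over the 21 libraries (log2 of CPM + 0.5) was compared with the 13037 genes that have a mean log2 CPM of at least 2, which leaves out UCN3 and other low genes, as a description over libraries that share groups and include the 2 that stand apart. GAST was most like INS (r = 0.949), CCK most like GIP (0.931), GIP most like C20orf204 (0.947) and then CCK among the genes searched, and CRH most like GHRL (0.951). NTS was most like RIPPLY3 (0.891), SCT most like GC (0.926) and MLN most like EPSTI1 (0.791). The next genes were OPRD1 and LINC02432 for GAST (0.931 each), FFAR1 and RFLNB for CCK (0.926 and 0.923), BTBD17 and MTURN for CRH (0.943 and 0.937), and ERN1 and STARD4-AS1 for NTS (0.860 and 0.843). For GIP the third was RGS16 (0.926), for SCT they were PGF and SAMD11 (0.913 and 0.899), and for MLN TFF1 and NAT1 (0.768 each). Among the 10 themselves, low genes included, the most alike were GIP and UCN3 (0.956), a value above that of any gene in the search for GIP, then CCK and GIP, and CCK and UCN3 (0.914). CCK and CRH were the least alike (−0.65). RIPPLY3 followed NTS between vectors, with a mean of 1.04 CPM in ISL1 KO BFP and 19.3 in ISL1 KO ISL1 OE. GHRL, most like CRH, had 43.3, 83.1 and 3207 CPM in ISL1 KO, WT and PAX6 KO with BFP, in the same order as CRH. In PDX1 KO BFP the order differed, since GHRL had 120.4 CPM, above the WT mean, and CRH was below it.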

How the data were processed

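RNA was isolated with a column kit and made into libraries by a template-switching method without strand or molecular identifiers, per the labels' protocols. The submitters' processing notes name STAR and GRCh38; no counting program is named in the labels. The authors deposited estimated counts per gene and lane, which need not be whole, and TPM per gene and lane. Counts were summed over the 4 lanes of each library and rounded, and the deposited TPM were averaged over lanes. Columns were matched to groups by name; 12 columns (3 libraries) were not used. The labels do not say that replicates are separate differentiations, so p-values measure the spread between these libraries, which may be technical. Symbols and positions are from GENCODE 29.

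All 21 libraries were fitted with edgeR 4.0.16 (R 4.3.3) as 8 group means: filterByExpr, which left 22184 genes, TMM scaling, and the quasi-likelihood F test, two-sided, with Benjamini-Hochberg adjustment over all genes and a threshold of 0.05. SEs are Wald errors from the fitted dispersion. Intervals and floors (3 counts) cover counting error only. DESeq2 1.42.0 (Wald test, size factors), no filter, the compared groups alone, a replicate block, the lane set and leaving out each library were alternatives. The fit was tested on counts simulated from these libraries at the common dispersion, with genes changed in PAX6 KO BFP. Against WT BFP it called 4% of the 2-fold and 73% of the 4-fold changes, with 2 false calls. Changes near 2-fold can thus go uncalled. Same-numbered libraries of PAX6 KO deviated together (correlations 0.176, 0.382 and 0.346), and separate replicate terms were fitted for this genotype. Those of ISL1 KO gave 0.170, 0.0992 and 0.307, and no separate terms were fitted there. Named were all 10 genes in every comparison, the 3 genes with a mean log2 CPM of at least 2 most like each gene that reached 10 CPM, up to 3 called genes per list by adjusted p, and the edited genes. The members and lists were chosen with earlier results of these data known. Promoter windows came from RefSeq (GRCh38.p14).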

Additional observations from a re-analysis of the deposited data

Results flagged for a closer look

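For 3 of the genes the difference between the labelled ISL1 OE and BFP libraries was itself different in PDX1 KO and in WT, by the interaction term of the edgeR fit. The vector effect in PDX1 KO exceeded that in WT by 6.35 ± 1.34 on the log2 scale for GAST (adjusted p = 0.0364), by 7.81 ± 1.46 for GIP (adjusted p = 0.0212) and by 9.37 for UCN3 (adjusted p = 0.0355). The call was made for 3 of 10 genes beside 1.37% of all genes. The GAST and UCN3 calls were lost without any 1 PDX1 KO BFP library, and the GIP call without replicate 2 or 3 of that group. For UCN3 the PDX1 KO BFP libraries held 1 count in all, so the size of its value is uncertain. The values rest on PDX1 KO ISL1 OE replicate 4. In the reduced set, which leaves it out, they were 0.86 for GAST (adjusted p = 0.427), 0.96 for GIP (adjusted p = 0.379) and 1.93 for UCN3 (adjusted p = 0.701).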

How the results depend on the processing

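Without the libraries that stand apart, several comparisons of vectors changed direction. In PDX1 KO the log2 fold changes with all libraries were 4.44 for CCK, 0.83 for SCT and 1.29 for TAC1. They became −0.62, −1.54 and −3.52 with the replicate block, −0.63, −1.35 and −3.78 in the reduced set, and −0.61, −1.35 and −3.77 without replicate 4, against 5.49, 1.74 and 2.36 without replicate 2. In the block, number 4 belongs to that library alone, which is then fitted exactly. In PAX6 KO, where neither passed, CRH went from 1.22 to −0.32 and CCK from 0.63 to −0.41 in the reduced set. The difference of the vector effect in PAX6 KO from that in WT went from 1.28 to −0.27 for CRH, from 0.59 to −0.46 for CCK and from 1.2 to −0.01 for NTS.

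The number of the 10 genes called moved by more than 1.5 times as follows, with the share of all genes called by the same fit in parentheses, which rose or fell with it in most cases. The replicate block gave 4 in ISL1 KO against WT in place of 1 (14.3%), 8 in PAX6 KO against WT in place of 5 (15.5%), 6 in PDX1 KO against PAX6 KO in place of 1 (9.12%), 2 for the vector in PAX6 KO in place of 0 (2.98%), 0 for the vector in PDX1 KO in place of 6 (2.55%) and 0 for its difference from WT in place of 3 (0.708%). The compared groups alone gave 6 in ISL1 KO (28.2%), 6 in PDX1 KO against PAX6 KO (15.5%), 5 for the vector in ISL1 KO (7.31%) and 1 for its difference from WT (0.466%), and 0 for the vector in PDX1 KO and for its difference from WT, where no gene at all was called. The reduced set gave 5 in ISL1 KO (28.5%), 6 in PDX1 KO against PAX6 KO (20.1%), 1 for the vector in PAX6 KO (6.02%), 2 for that in PDX1 KO (11.2%) and 0 for its difference from WT (3.28%). DESeq2's Wald test gave 2 in PDX1 KO against PAX6 KO (7.32%) and 1 for the vector in PAX6 KO (2.32%), and the lane set gave 1 for the difference of the PDX1 KO vector effect from WT (0.987%). The cause was not tested.

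Leaving out 1 library at a time gave 2 to 3 called in PAX6 KO against WT (1.19% to 4.62% of all genes), 3 to 4 in PAX6 KO against ISL1 KO (1.45% to 2.24%), 0 to 4 in PDX1 KO against ISL1 KO (2.39% to 4.41%), 0 to 1 for the vector in ISL1 KO (0.0904% to 0.244%) and in PAX6 KO (0.0766% to 0.584%), 0 to 8 for the vector in PDX1 KO (3.1% to 46.8%) and 0 to 6 for its difference from WT (0.0516% to 35.7%). Of the 51 fold changes followed, the other settings gave 273 values with the same direction and call, 52 newly past the threshold, 27 no longer past it and 6 reversed. In the leave-one-out fits, some of which left 1 library in a group, the numbers were 208, 3, 79 and 3 in the same order. In the check of pairing, same-numbered libraries deviated together in PAX6 KO, and the correlations were also positive in ISL1 KO (0.0992 to 0.307). Replicate terms for the PAX6 KO libraries left 0 called for the vector there, against 2 with the block shared by all genotypes. No such terms were fitted for ISL1 KO alone. UCN3 and VIP are limited by counts near 0, and so is TAC1 in PDX1 KO ISL1 OE replicate 2 (3 counts). VIP passed the filter only through PAX6 KO and is among the genes called in PDX1 KO against PAX6 KO in the reduced set.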
